A study of Mus musculus with 2 samples.

Results

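Nascent embryonic mesoderm nuclei were studied here as the 700 barcodes, of 11605 in a set depth range and 15341 in all, with the highest score for genes of newly formed mesoderm. The score was the mean of ln(1 + UMIs per 10000) over the 7 markers Mesp1, Mesp2, Lefty2, Dll1, Pcdh19, Cdh20 and Tenm2, minus the same mean over the 3 extraembryonic mesoderm genes Fendrr, Foxf1 and Tbx20. A UMI (unique molecular identifier) marks 1 captured RNA molecule. The depth range was 3000 to 30000 RNA UMIs and at least 2000 counts in accessibility peaks per barcode. The score is a range and not a boundary: it was 1.89 in the top barcode, 0.866 at the median of the members and 0.622 at rank 700, and the next barcode had 0.621. Within 0.05 of that limit lay 75 members above it and 80 other barcodes below it.

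The data were a nuclear RNA library and a chromatin accessibility library made from the same nuclei of pooled mouse embryos at embryonic day 7.0, dissociated with TrypLE. The 2 assays share their barcodes by design, and with 1 library per assay and no assignment of nuclei to embryos there was no replicate and no test. All intervals below are 95% intervals that cover counting error only. The titles, age and protocol describe E7.0 embryos, whereas the tissue and cell type fields name goblet cells of small intestine and colon and the strain field names RedMUC298trTg, so the genotype of the embryos is uncertain. Goblet and enterocyte genes were near 0 in the members: 8 such genes gave 81 UMIs together, 67 of them from Vil1, with Muc2 and Clca1 at 0 and Tff3 at 2.

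The members were set against the 10905 other barcodes in range and against 4 groups scored on their own genes: 656 primitive streak-scored, 659 extraembryonic mesoderm-scored, 696 epiblast-scored and 697 visceral endoderm-scored barcodes. All of them come from the same pool of embryos, so age and strain are shared, and the labels give no treatment. Members held 8561023 UMIs and 15378907 peak counts. The median member had 11403.5 UMIs, 4403 genes and 21736.5 peak counts, against 11346, 4412 and 19336 in the other barcodes. Scrublet called 47 members (6.71%) and 676 other barcodes (6.20%) doublets, and these were kept.

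At gastrulation, epiblast cells pass through the primitive streak, lose epithelial contacts and spread between epiblast and visceral endoderm as mesoderm. Nodal, Wnt and FGF signals and the T-box factors T and Eomes act in this step, and Snai1 represses the epithelial cadherin gene Cdh1. Mesp1 and Mesp2 encode basic helix-loop-helix factors, and Mesp1 marks the first mesoderm to leave the streak, including progenitors of the heart and cranial mesoderm. Extraembryonic mesoderm, which builds the allantois, amnion and yolk sac lining, leaves the streak in the same period and expresses Bmp4, Hand1, Foxf1 and Fendrr.

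Promoter windows of 4 of the 7 score markers are shown, each of which overlaps a measured accessibility peak. The score did not use accessibility, but accessibility was read in the nuclei that RNA chose. The windows are RefSeq GRCm38.p6 sequence, 250 bases before to 50 after the gene start, 5′ to 3′ on the strand of the gene. Capitals mark every AGGTGT (a core of the T-box site), CTTTGAT (LEF/TCF) and CAAATG (an E-box that MESP factors can bind) on either strand. Mesp1 lies at chr7:79793541-79793840 on the minus strand and holds AGGTGT at bases 18 to 23, CTTTGAT at 220 to 226 and ACACCT at 258 to 263. Mesp2, its neighbour, lies at chr7:79810477-79810776 on the plus strand and holds ACACCT at bases 280 to 285 and CAAATG at 289 to 294. Dll1, a Notch ligand gene, lies at chr17:15375774-15376073 on the minus strand and holds CATTTG at bases 31 to 36. Cdh20, a type II cadherin gene, lies at chr1:104768270-104768569 on the plus strand and holds none of the 3 motifs.
Mesp1: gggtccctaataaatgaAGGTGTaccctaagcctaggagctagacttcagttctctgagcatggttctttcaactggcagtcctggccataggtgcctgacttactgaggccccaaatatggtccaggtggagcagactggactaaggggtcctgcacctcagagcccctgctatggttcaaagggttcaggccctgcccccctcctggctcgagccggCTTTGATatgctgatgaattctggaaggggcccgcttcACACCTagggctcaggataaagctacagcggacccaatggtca
Mesp2: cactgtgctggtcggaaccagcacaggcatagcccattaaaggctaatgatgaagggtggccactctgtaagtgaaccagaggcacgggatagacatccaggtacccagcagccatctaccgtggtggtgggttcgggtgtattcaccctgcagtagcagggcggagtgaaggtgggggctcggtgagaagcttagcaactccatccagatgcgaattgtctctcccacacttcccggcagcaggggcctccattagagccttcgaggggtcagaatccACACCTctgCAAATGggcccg
Dll1: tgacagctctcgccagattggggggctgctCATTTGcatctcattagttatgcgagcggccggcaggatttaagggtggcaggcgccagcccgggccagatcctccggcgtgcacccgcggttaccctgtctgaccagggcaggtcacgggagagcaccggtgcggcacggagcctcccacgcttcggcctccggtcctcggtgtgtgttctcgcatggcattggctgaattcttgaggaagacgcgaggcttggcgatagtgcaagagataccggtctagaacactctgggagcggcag
Cdh20: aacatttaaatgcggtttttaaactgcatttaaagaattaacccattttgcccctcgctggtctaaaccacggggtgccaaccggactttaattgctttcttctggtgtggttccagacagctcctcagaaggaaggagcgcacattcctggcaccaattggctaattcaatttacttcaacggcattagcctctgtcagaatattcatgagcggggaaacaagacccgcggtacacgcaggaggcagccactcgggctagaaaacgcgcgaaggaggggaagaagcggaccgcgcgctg

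RNA of the 7 markers chose the members, so their levels are a description. Mesp1 stood at 462.8 CPM (UMIs per 1000000 UMIs) in members and 52.3 in the other barcodes, an 8.84-fold ratio (8.50 to 9.19). Mesp2 stood at 51.3 CPM against 2.62, a 19.6-fold ratio (17.0 to 22.5). Lefty2, an inhibitor of Nodal signalling, stood at 253.8 CPM against 13.0 (19.6-fold), and Dll1 at 129.3 against 7.54 (17.2-fold). The adhesion genes followed, with Pcdh19, a protocadherin gene, at 229.2 CPM against 13.0, Cdh20 at 284.5 against 17.0, and Tenm2, a teneurin gene, at 304.3 against 19.5. The subtracted genes were low in members: Fendrr at 1.17 CPM, Foxf1 at 1.64 and Tbx20 at 18.6.

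The 7 markers differed in how they were shared with related groups. Mesp1 stood at 160.3 CPM in primitive streak-scored and 113.3 CPM in extraembryonic mesoderm-scored barcodes, and at 27.6 CPM in epiblast-scored ones. Lefty2 was at 24.1 CPM in streak-scored and 11.7 in extraembryonic mesoderm-scored barcodes, and Dll1 at 23.1 and 11.3. Pcdh19, Cdh20 and Tenm2 had the opposite order, with 35.0, 43.3 and 50.1 CPM in extraembryonic mesoderm-scored and 18.3, 34.2 and 26.5 CPM in streak-scored barcodes. The extraembryonic mesoderm-scored group also carried more RNA of extraembryonic ectoderm markers than the other barcodes did, with Elf5 at 64.8 CPM against 37.0. Of its 659 barcodes, 116 lay in an accessibility cluster whose leading genes include the extraembryonic ectoderm markers Esrrb and Duox2. Another 31 lay in a cluster whose leading genes include Sox21 and Duox2. The part of this RNA and of these barcodes in the values of that group was not tested.

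**Figure D1:**
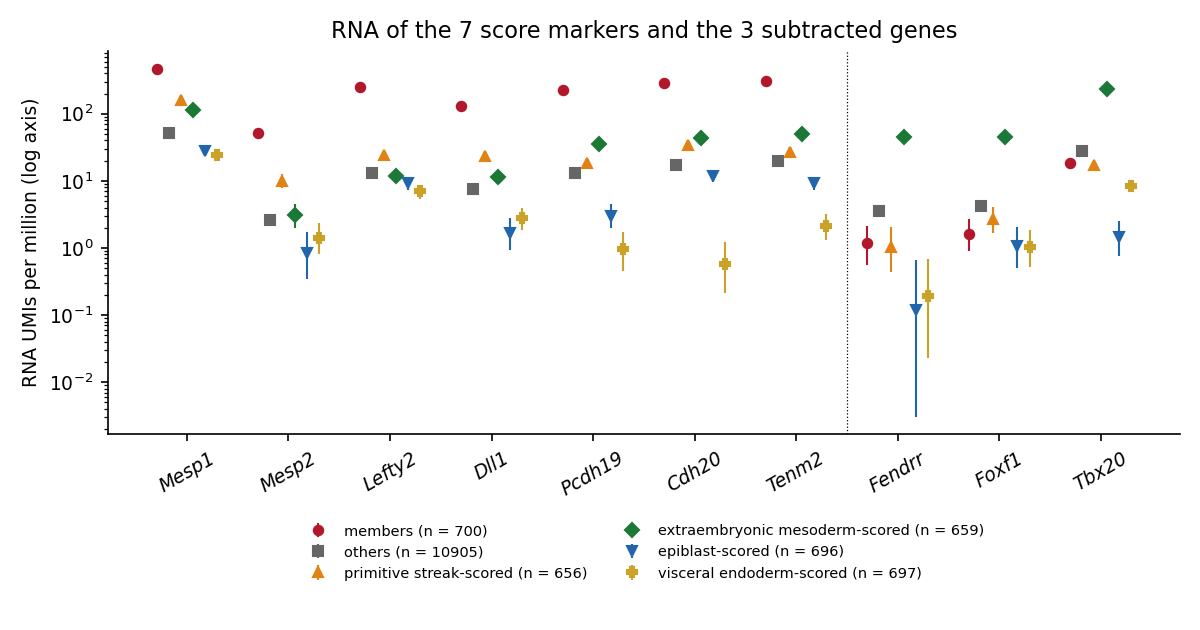
RNA level of the 7 markers and 3 subtracted genes (CPM, log axis) in members, all other barcodes and 4 scored groups; bars are 95% counting intervals, and groups with no UMI of a gene are not drawn. Members lie above every other group for each of the 7 markers, which the choice of members fixed, and Tbx20 reaches 235.5 in extraembryonic mesoderm-scored barcodes.

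Detection in single nuclei was incomplete. Mesp1 had at least 1 UMI in 95.3% of members, 32.0% of other barcodes and 29.99% of visceral endoderm-scored barcodes, a cell type that should lack it. Mesp2 was detected in 37.1%, 2.88% and 1.87% of the same groups, and Lefty2 in 77.9%, 11.1% and 10.0%. After thinning every barcode to 3000 UMIs, Mesp1 was detected in 68.2% of members and 12.2% of the others, and Mesp2 in 13.8% and 0.774%. Both Mesp genes were found together in 252 members (36.0%), Mesp1 without Mesp2 in 415 (59.3%), Mesp2 without Mesp1 in 8, and neither in 25. The median member had 5 of the 7 markers, 499 members (71.3%) had 5 or more, and 72 (10.3%) had all 7.

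When each marker was left out of the score in turn and the top 700 were chosen by the other genes, 89.4 to 95.6% of the members were the same. The left-out gene was then 6.97-fold higher for Mesp1, 14.2-fold for Mesp2, 14.5-fold for Lefty2 and 12.4-fold for Dll1. The adhesion genes stood at 11.96-fold for Pcdh19, 11.3-fold for Cdh20 and 10.6-fold for Tenm2 when left out. Each ratio was smaller than with the gene in the score. The members were chosen with earlier results of these data known, so these values describe how the 7 markers go together and are no independent check.

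Chromatin at the marker loci was more accessible in the members than in the other barcodes. Over all peaks measured, the median ratio of members to others was -0.12 on the log2 scale, and the ratios below are not corrected for this. Peaks near a marker were those from 50 kb before its first to 50 kb after its last listed start. Of 83 such peaks measured for the 7 markers, 30 (36.1%) were at least 1.5-fold higher in members and 8 were at least 1.5-fold lower. Of all peaks measured, 15.7% were that much higher and 29.4% that much lower. Counts summed over these spans were 2.504-fold higher for Mesp1, 2.45-fold for Mesp2 (2 sums that share 15 measured peaks, since the genes are neighbours), 2.04-fold for Cdh20 and 1.79-fold for Dll1. The sums were 1.36-fold for Tenm2, 1.29-fold for Lefty2 and 1.29-fold for Pcdh19, close to the 1.17-fold of the subtracted genes Fendrr and Foxf1. The Tenm2 sum is not like the others, since its listed starts lie far apart. Its span took in peaks between them, such as 1 at 128830 bases from the start.

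The promoter peak of Cdh20, at chr1:104768319-104768782, was 4.53-fold higher in members (3.78 to 5.41, 266 member counts). The promoters of Dll1, Lefty2 and Mesp2 were 2.61-fold (2.34 to 2.89), 2.33-fold (1.64 to 3.23) and 2.31-fold (2.05 to 2.59) higher. The Mesp1 start has no peak in its promoter window as defined here (1000 bases before to 100 after a listed start). The nearest peak, chr7:79792811-79793686, which overlaps the window printed above, was 1.46-fold higher (1.26 to 1.69). Tenm2 stood at 1.43-fold and Pcdh19 at 1.10-fold at their promoters, so 15.6-fold and 17.6-fold RNA ratios went with small promoter ratios at these 2 genes. The score raised these RNA ratios, which were 10.6-fold and 11.96-fold with the gene left out of it. The Tenm2 promoter value pools peaks at starts far apart, and the peak at -830 bases alone stood at 1.49-fold. The peak at the shared promoter of Fendrr and Foxf1 stood at 1.04-fold and that of Tbx20 at 1.13-fold.

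Some distal peaks around Mesp1 and Mesp2 showed larger ratios than the Mesp2 promoter (2.31-fold) and the peak nearest the Mesp1 start (1.46-fold). Other distal peaks there did not, such as chr7:79780369-79781195 at 1.34-fold. A peak at chr7:79789071-79789969, 4268 bases downstream of the Mesp1 start, had 48.6 peak CPM in members and 12.1 in the others, a 4.02-fold ratio (3.59 to 4.503). The same peak had 34.7 CPM in streak-scored, 30.3 in extraembryonic mesoderm-scored, 3.08 in epiblast-scored and 2.03 in visceral endoderm-scored barcodes. Upstream of Mesp1, between the 2 genes, chr7:79796906-79797810, chr7:79798589-79799463 and chr7:79802362-79803257 were 4.05-fold, 4.12-fold and 4.71-fold higher. In these 3 peaks the streak-scored barcodes had 22.5, 24.3 and 7.01 CPM and the extraembryonic mesoderm-scored ones 42.8, 36.3 and 4.12, against 51.2, 46.5 and 13.7 in members. Epiblast-scored barcodes had 1.40, 4.205 and 0.841 CPM there, and visceral endoderm-scored ones 18.97, 3.24 and 1.22. All 4 peaks were highest in the members among these groups, and the second was also accessible in visceral endoderm-scored barcodes.

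Single distal peaks at the other markers also stood apart. At Lefty2, chr1:180889851-180890726, at -2820 bases from the start, had 53.4 CPM against 8.78 (6.09-fold, 5.43 to 6.82). At Dll1, chr17:15423147-15424026, at -47610 bases, was 6.41-fold higher (5.07 to 8.06). At Pcdh19, chrX:133693730-133694734 was 7.12-fold higher (4.99 to 10.1), and at Tenm2, chr11:37224333-37225221, between its listed starts, was 11.6-fold higher (7.90 to 17.0). At Pcdh19 and Tenm2, these single peaks contrast with the small ratios of the promoters.

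**Figure D2:**
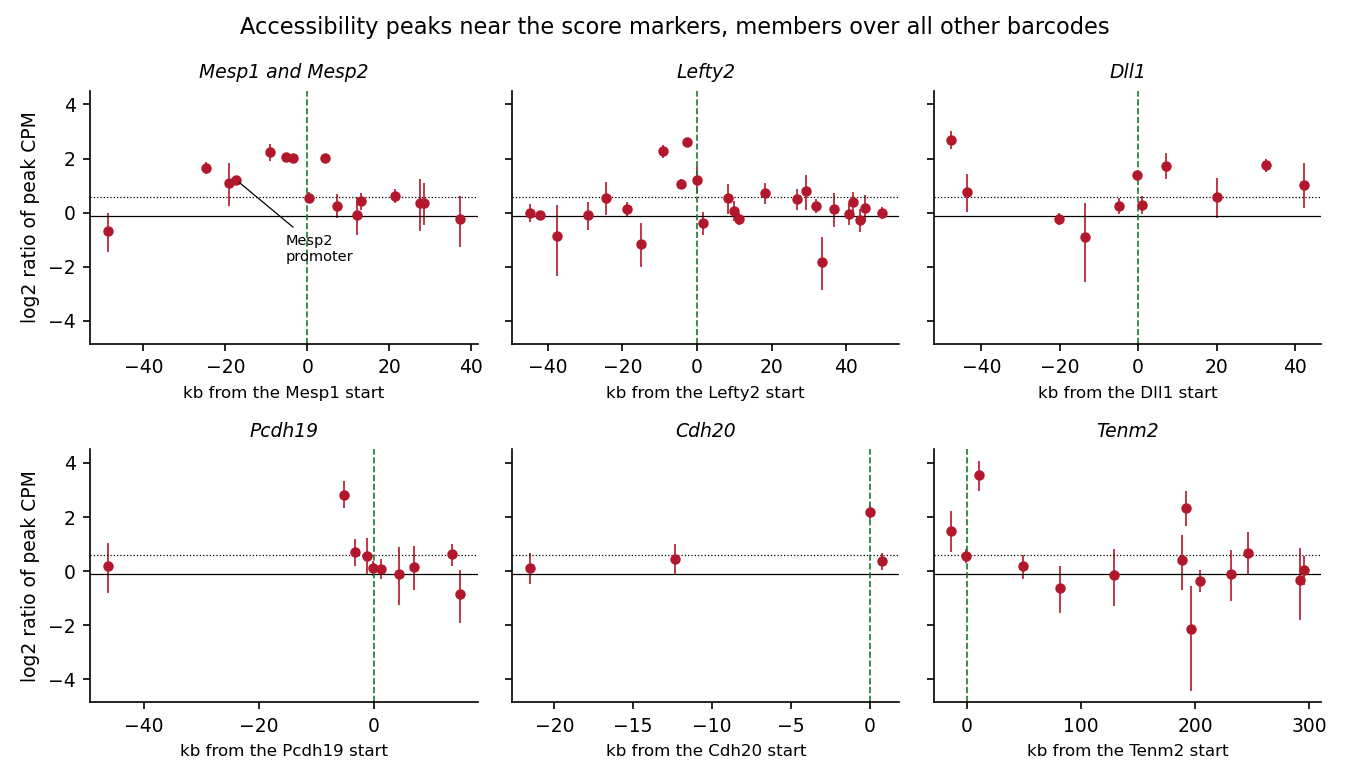
Ratio of members to all other barcodes (log2) of each measured accessibility peak near the 7 markers, against distance from the gene start in kb, negative upstream; bars are 95% counting intervals, the solid line is the median of all peaks and the dotted line is 1.5-fold. The highest points are distal peaks for every gene but Cdh20, where the promoter peak is highest at 4.53-fold.

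Among distal peaks with at least 200 member counts, the 8 with the highest ratios had 11.0-fold to 14.3-fold higher CPM in members. Their nearest starts were those of March3, Gm3227, Tubb4a, 4933433F19Rik, Gm12127, Kctd6, Pmaip1 and Gm10605. Of these genes only Pmaip1 (2.86-fold) and Gm3227 (11.5-fold, at 0.934 CPM in members) had RNA at least 2-fold higher. March3, Tubb4a, 4933433F19Rik and Kctd6 stood at 1.73-fold, 1.05-fold, 1.22-fold and 1.85-fold in RNA, and Gm12127 and Gm10605 at 0 CPM in members. The peak near Kctd6, chr14:8208729-8209622, had 32.7 CPM in members and 2.83 in the others (11.6-fold, 9.78 to 13.7). Of 154300 distal peaks measured, 13833 (8.97%) were at least 2-fold higher in members and 32539 (21.1%) at least 2-fold lower.

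Accessibility alone placed most members together. In a clustering that used only peak counts, 623 of the 700 members (89.0%, 86.4 to 91.2) fell in 1 of 18 clusters, which held 1402 barcodes. The same cluster held 779 of the 10905 other barcodes (7.14%), 157 of 656 streak-scored (23.9%) and 131 of 659 extraembryonic mesoderm-scored ones (19.9%). It held 0 of 696 epiblast-scored barcodes, which allows a share of up to 0.529%, and 0 of 697 visceral endoderm-scored ones, which allows up to 0.528%. The share depends on the clustering settings: 45.9% of members lay in their leading cluster at clustering resolution 2 and 42.1% with 20 singular vectors.

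The 77 members outside the leading cluster differed in depth. Scrublet called 37 of them doublets, against 10 of the 623 inside, and their medians were 15480 UMIs and 35673 peak counts, against 11132 and 21211. Of these 77, 30 lay in a cluster in which 62.3% of barcodes were called doublets and 10 in a cluster with 73.9%. The part of doublets in the membership of these 77 was not tested.

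The share in the leading cluster was smaller at lower scores. In 5 bands of 140 members from the highest score down, 97.1%, 95.7%, 87.9%, 85.7% and 78.6% lay in it, and 78.6% of the 140 barcodes just below the limit did too. Doublet calls in these 6 bands were 2, 3, 11, 16, 15 and 11. Lhx1 stood at 1255 CPM in the first band, 888 in the last and 830 below the limit, whereas T had no such order, with 112, 101, 82.6, 93.4, 106 and 108 CPM. Tbx6, a T-box gene of paraxial mesoderm, stood at 33.4 CPM in the first band and between 10.4 and 15.7 in the others.

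**Figure D3:**
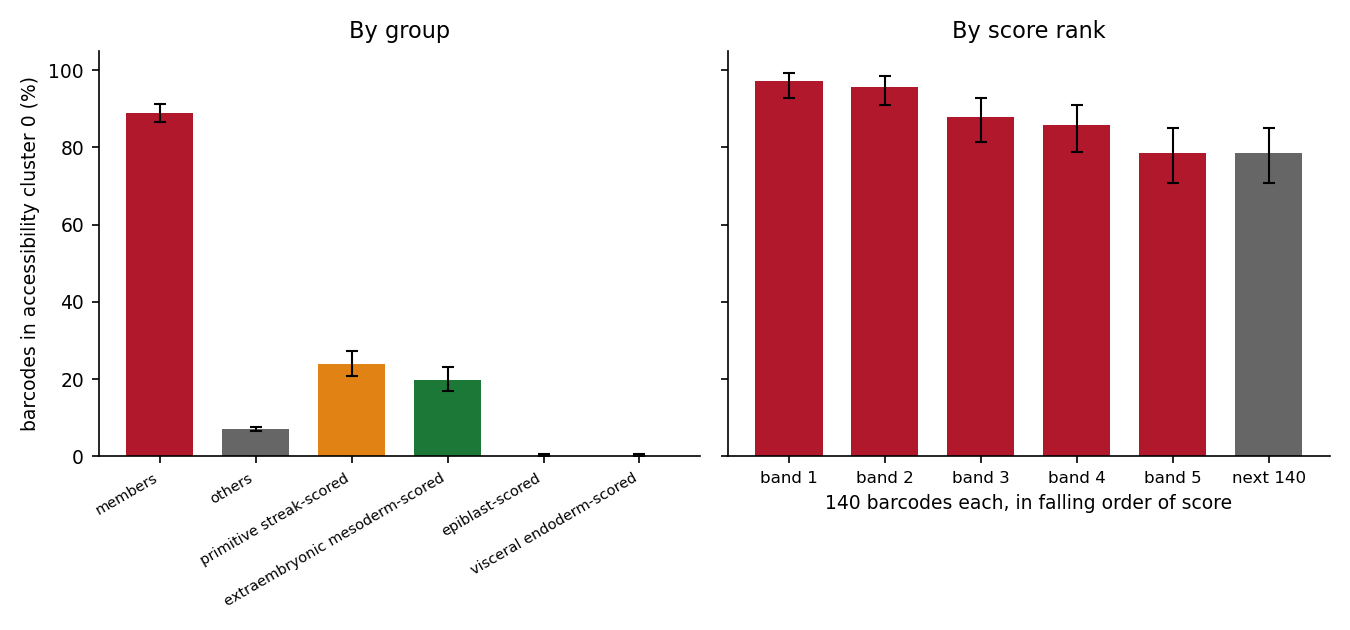
Percent of barcodes in the accessibility cluster that holds most members, by group (left) and for 5 bands of 140 members and the next 140 barcodes in falling order of score (right); bars are 95% exact binomial intervals. Members stand at 89.0% against 7.14% of other barcodes, and the lowest band of members equals the next 140 barcodes at 78.6%.

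Across the transcriptome, 732 of 15981 genes outside the score with at least 100 UMIs (4.58%) were at least 2-fold higher in members, and 2232 (14%) were at least 2-fold lower, so lower genes outnumbered higher ones. The median gene stood at -0.07 on the log2 scale. The RNA that chose the members enters all of these ratios through the same nuclei, and they are a description. Among genes with at least 200 UMIs in members, Foxc1, a forkhead factor gene of paraxial and cardiac mesoderm, had the highest ratio at 18.03-fold (14.9 to 21.8), with 28.0 CPM against 1.55. Next came Col19a1, a collagen gene, at 13.8-fold, Tmem132c at 13.6-fold, Wnt2, a Wnt ligand gene, at 10.9-fold and Pcdh8, a protocadherin gene, at 10.3-fold.

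The remaining genes of the 15 with the highest ratios at that limit stood between 8.06-fold and 10.1-fold. They were Pcdh11x, Kcnh7, Rimbp2, Irx5, Srrm4, Prmt8, D430041D05Rik, Gm45889, Rasgrp3 and Plxna4. Kcnh7 encodes a potassium channel and stood at 442.6 CPM against 44.1, Irx5 encodes an Iroquois homeodomain factor and stood at 38.9 against 4.38, and Plxna4 encodes a semaphorin receptor and stood at 174.6 against 21.7. Of genes with at least 2000 UMIs in the others, the 10 with the lowest ratios were Ccdc85a, Synj2, 9030622O22Rik, Hnf1aos1, Parm1, Triml2, Gm13270, Slc25a21, Pkd1l1 and Sh3gl2. They ranged from 0.046 for Ccdc85a (0.017 to 0.10, on 6 member UMIs) to 0.105 for Sh3gl2 (0.061 to 0.168). All 10 were also lower under each alternative choice of members, but 8 of them moved by over 1.5 times in at least 1, so their order is not fixed. With doublet calls left out, 9030622O22Rik went from -3.90 to -5.42 on the log2 scale, Gm13270 from -3.45 to -4.69, Triml2 from -3.48 to -4.54 and Pkd1l1 from -3.26 to -3.96. With the top 1000 barcodes, Synj2 went from -4.41 to -3.25, and without the adhesion genes in the score Hnf1aos1 went from -3.84 to -2.87.

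T-box genes and inducers of epithelial-mesenchymal transition were higher as a group: all 10 of the 12 listed genes that were measured were at least 2-fold higher, with a median of 1.84 on the log2 scale against -0.07 over all genes. Over all genes measured, 4.58% were at least 2-fold higher and 14% at least 2-fold lower, and the counts of each list below stand beside these shares. Tbx6 stood at 17.2 CPM against 2.46 (6.98-fold), Snai1 at 184.0 against 29.8 (6.17-fold, 5.82 to 6.54) and Mixl1, a streak homeobox gene, at 145.4 against 32.6 (4.46-fold). Zeb2 was at 432.5 against 109.2 (3.96-fold), T at 99.2 against 36.0 (2.75-fold) and Eomes at 310.8 against 132.2 (2.35-fold). Msgn1 and Snai2 had 1 UMI each in the members and were not measured. T was detected together with the endomesoderm factor Gata6 in 304 members (43.4%), Gata6 was found without T in 287 (41.0%), and T without Gata6 in 61 (8.71%). The joint share was not set against the share of each gene alone, and an undetected gene can still be expressed.

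Adhesion and matrix genes stood on both sides, with 5 of 15 at least 2-fold higher, 4 at least 2-fold lower and a median of 0.09 on the log2 scale. Cdh1, the epithelial cadherin gene, stood at 56.2 CPM against 267.3, a ratio of 0.210, and the epithelial genes Cldn6, Cldn7 and Epcam at 0.287, 0.304 and 0.40. The mesenchymal cadherin genes Cdh11 and Cdh2 stood at 682.9 CPM against 102.9 (6.64-fold) and 997.2 against 264.8 (3.77-fold). Vcan, a matrix proteoglycan gene, was 4.69-fold, Fn1, which encodes fibronectin, 4.44-fold and its receptor subunit gene Itga5 2.47-fold higher. Vim, which encodes vimentin, stood at 1.06-fold. Members thus carried the low epithelial and high mesenchymal cadherin RNA known from cells that have left an epithelium.

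Of 20 protocadherin, teneurin and partner genes, 8 were at least 2-fold higher and 2 at least 2-fold lower, with a median of 0.90 on the log2 scale. Tenm4 stood at 1665 CPM against 240.7 (6.92-fold), Robo1, a Slit receptor gene, at 2562 against 476.2 (5.38-fold) and Pcdh7 at 2925 against 588.4 (4.97-fold). Pcdh17 was 4.65-fold, Epha4 3.95-fold, Slit2 2.26-fold and Tenm1 2.20-fold higher. Pcdh10 stood at 0.34 and Robo2 at 0.40.

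In the Notch pathway, 4 of 14 measured genes outside the score were at least 2-fold higher and 0 at least 2-fold lower, with a median of 0.25 on the log2 scale. They were Lfng, which encodes a glycosyltransferase that modifies Notch, at 16.1 CPM against 1.83 (8.79-fold), the ligand genes Dll3 at 123.3 against 17.0 (7.26-fold) and Jag1 (3.36-fold), and the receptor gene Notch1 at 66.9 against 14.2 (4.72-fold). The target gene Hes1 stood at 1.75-fold and the effector gene Rbpj at 1.02-fold. In the Nodal pathway, 1 of 13 genes was higher, the co-receptor gene Tdgf1 at 467.2 CPM against 140.8 (3.32-fold), 4 were lower and the median was 0.05. A count of 1 higher is near the 4.58% of all genes measured that were higher, and 14% of all genes were lower. The 4 lower genes were the ligand gene Nodal at 0.446, the antagonist genes Lefty1 at 0.183 and Cer1 at 0.239, and Pcsk6, a proprotein convertase gene, at 0.259. Lefty1 is the paralog of the score marker Lefty2, whose high level the choice of members set.

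In the FGF pathway, 5 of 15 genes were at least 2-fold higher and 1 lower, with a median of 0.20 on the log2 scale. The ligand genes Fgf3, Fgf4, Fgf15 and Fgf10 stood at 7.04-fold, 4.71-fold, 3.13-fold and 3.03-fold, and the feedback phosphatase gene Dusp6 at 2.07-fold. Fgf8, the main ligand of the streak, stood at 85.3 CPM against 74.1 (1.15-fold). That was below the 255.8 of streak-scored barcodes, a group that Fgf8 helped choose. The receptor gene Fgfr3 was lower at 0.22. In the Wnt pathway, 7 of 18 genes were higher and 1 lower, with a median of 0.67 on the log2 scale. Wnt5a stood at 62.3 CPM against 11.6 (5.38-fold), the nuclear effector gene Lef1 at 1312 against 316.3 (4.15-fold), the antagonist gene Frzb at 5.11-fold, Wnt2b at 4.40-fold, Wnt3 at 3.04-fold, Rspo3 at 2.30-fold and Wnt3a at 2.20-fold. Lgr5, an R-spondin receptor gene, stood at 0.195.

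In the BMP pathway, 0 of 16 genes were at least 2-fold higher and 4 lower, with a median of -0.06 on the log2 scale: Bmp2 at 0.494, Id2 at 0.381, Chrd at 0.291 and Bmp4 at 0.259. A count of 0 higher is near the 4.58% of all genes measured that were higher, and 14% of all genes were lower. Bmp4 stood at 9.70 CPM in members, 37.4 in the others and 209.1 in extraembryonic mesoderm-scored barcodes, a group that Bmp4 helped choose. Of 14 genes for migration cues and receptors, 5 receptor genes were higher and 6 genes lower, with a median of -0.08. Aplnr, the apelin receptor gene, stood at 48.8 CPM against 8.16 (5.98-fold), Pdgfra at 249.4 against 54.7 (4.56-fold), Pdgfrb at 3.66-fold, Cxcr4 at 2.82-fold and Kdr at 98.4 against 40.6 (2.42-fold). The ligand genes Apela, Cxcl12, Kitl and Vegfa were among the lower ones, at 0.324, 0.328, 0.350 and 0.370, with Kit at 0.303 and S1pr2 at 0.374. Apln, the other ligand gene of the apelin receptor, stood at 18.1 CPM against 15.9 (1.14-fold, 0.961 to 1.34).

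Among paraxial and cranial mesoderm factors, 5 of 10 measured genes were at least 2-fold higher and 0 lower, with a median of 1.44 on the log2 scale. Besides Foxc1 these were Foxc2 (10.96-fold on 47 UMIs), Lhx1 at 1060 CPM against 217.3 (4.88-fold), Hoxb1 (4.82-fold) and Cdx1 (3.68-fold). Among cardiac and lateral mesoderm factors, 4 of 11 were higher and 1 lower, with a median of 0.26: Wnt2, Gata6 at 266.7 CPM against 74.1 (3.60-fold), Mef2c (3.27-fold) and Isl1 (2.43-fold) were the higher ones. Gata4 stood at 1.86-fold, Tbx3 at 1.20-fold and Hand1 at 0.66.

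**Figure D4:**
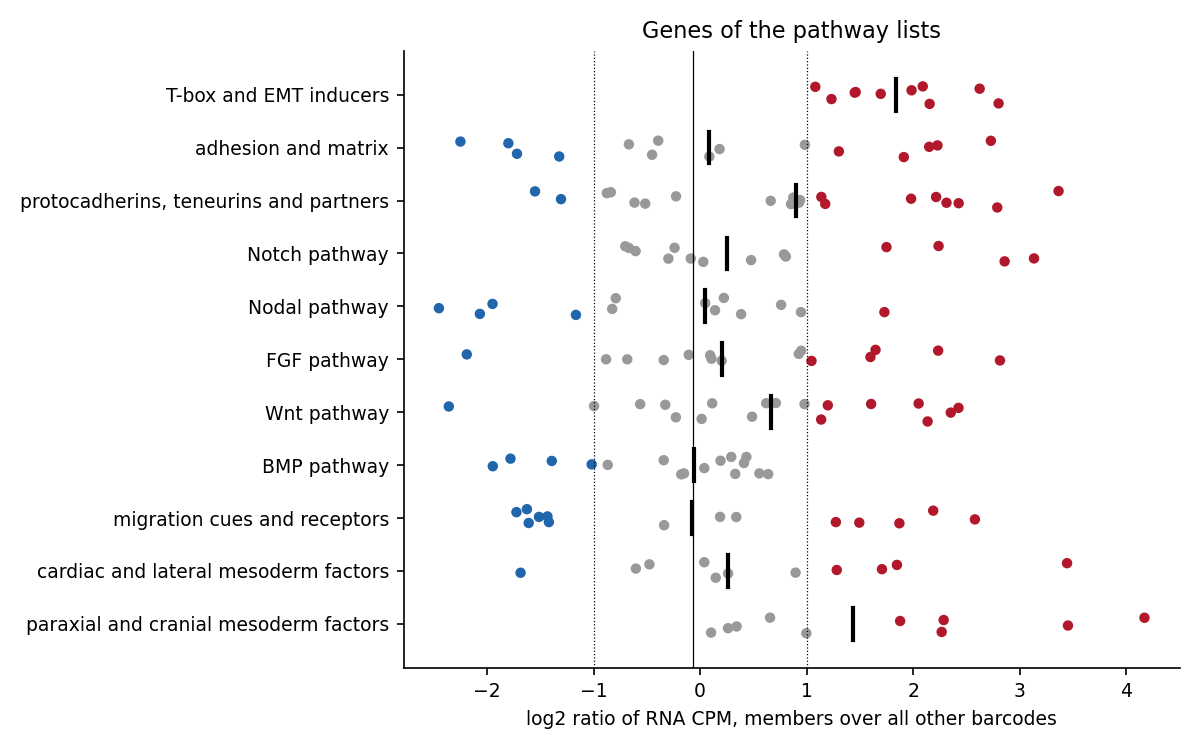
Log2 ratio of RNA CPM, members over all other barcodes, for each measured gene of 11 pathway and lineage lists; black ticks are list medians, the solid line is the median of all genes (-0.07) and dotted lines are 2-fold. All 10 T-box and EMT inducer genes lie above 2-fold, against 4.58% of all genes measured, and 0 of 16 BMP genes do, which is near that share.

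Markers of other cell types were mostly low in the members. Over all genes measured, 4.58% were at least 2-fold higher and 14% at least 2-fold lower. Of 7 streak markers, 6 were measured and 5 were at least 2-fold higher. Of 8 epiblast markers, 6 were lower, including Sox2 at 0.272 and Pou3f1 at 0.241, whereas Pou5f1 stood at 110.4 CPM against 118.4 (0.932). Extraembryonic mesoderm markers were lower in 5 of 7, but this list holds the 3 subtracted genes, whose low level the rule favoured. Of its 4 measured genes outside the rule, 3 were lower: Ahnak at 0.135, Bmp4 at 0.259 and Pitx1 at 0.343, with Pmp22 at 0.849. Anterior streak and endoderm markers were lower in 5 of 6 (Foxa2 at 0.239, Sox17 at 0.234), and extraembryonic ectoderm markers in 7 of 7. Among 9 haemato-endothelial markers only Kdr was higher and 6 were lower.

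All 8 visceral endoderm markers were lower, yet their RNA summed to 725 CPM in members, against 3392 CPM in the others, 747 in streak-scored, 626 in epiblast-scored and 17814 in visceral endoderm-scored barcodes. At the promoters of these 8 genes, 7 were at least 1.5-fold lower in members, and the Ttr promoter had 2 member counts (0.022 of the level in the others). Visceral endoderm RNA was thus at a like level in the members as a whole, the streak-scored and the epiblast-scored barcodes. It was uneven among members: all 8 genes were higher in the 77 members outside the leading accessibility cluster than in the 623 inside. Cubn stood at 714.7 CPM in those 77, of which 37 were doublet calls, against 83.4 CPM inside. The part of visceral endoderm RNA in the ratios above was not tested. Of the cell type lists given here, only the streak list had most of its measured genes at least 2-fold higher, and all of these RNA ratios come from nuclei that the RNA score chose.

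Promoter accessibility followed the RNA for part of the genes. Of 20547 promoters measured outside the score, 933 (4.54%) were at least 1.5-fold higher in members and 1867 (9.09%) at least 1.5-fold lower, and with peak counts scaled by the median of ratios the split was 1321 against 1520. Among genes with RNA at least 2-fold higher, 108 of 635 measured promoters (17.0%) were higher and 10 lower. Among genes with RNA at least 4-fold higher, 43 of 137 (31.4%) were higher and 0 lower, and among genes within 2-fold in RNA, 168 of 12040 (1.40%) were higher. Of distal peaks within 50 kb of genes with higher RNA, 16.4% were at least 2-fold higher, against 6.70% near genes within 2-fold.

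Over all promoters measured, 4.54% were higher and 9.09% lower. By list, promoters of 5 of 11 T-box and EMT genes, 5 of 14 paraxial and cranial genes and 3 of 18 Notch genes were higher. So were 2 of 18 Wnt, 2 of 18 protocadherin, teneurin and partner, 2 of 15 adhesion and matrix and 2 of 14 migration genes. Counts were 1 of 15 for FGF, 1 of 11 for cardiac and lateral, 0 of 12 for Nodal and 0 of 16 for BMP genes, near the share of all promoters. Lower promoters numbered 3 in the adhesion and matrix list, 1 in the Notch list and 1 in the BMP list. Dll3 stood at 2.82-fold (2.48 to 3.19), Aplnr at 2.78-fold, Cdh11 at 2.19-fold, Lfng and Mixl1 at 2.06-fold, Zeb2 at 1.92-fold and Lef1 at 1.79-fold. Cldn7, Cldn6 and Cdh1 were lower at their promoters, at 0.328, 0.410 and 0.668 of the others. Snai1 and Foxc1, by contrast, stood at 1.02-fold and 1.01-fold at their promoters beside RNA ratios of 6.17-fold and 18.03-fold. Thus the promoter ratio was near 1 at some of the genes with the highest RNA ratios.

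The motifs marked in the printed promoters were also counted in all 32851 RefSeq windows, on both strands. AGGTGT was present in 13.7% of all windows, 11.9% of the 18580 windows in a measured peak and 17.7% of the 843 whose peak was higher in members, but also in 17.5% of the 1768 whose peak was lower. CAAATG was present in 13.7%, 9.29%, 18.7% and 15.5% of these sets, and CTTTGAT in 3.73%, 2.79%, 4.98% and 4.69%. CAGGTG, the E-box of SNAI factors, was in 20.3% of windows in a measured peak, 19.0% of those with higher and 33.9% of those with lower peaks. Median GC content was 59.7% in windows in a measured peak, 53.3% in those with higher and 51.3% in those with lower peaks, so the sets differ in base composition.

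Against the streak-scored barcodes, 213 of 10669 genes (2%) were at least 2-fold higher in members and 281 (2.63%) at least 2-fold lower. Foxc1 was 12.9-fold higher (7.87 to 22.5), D430041D05Rik 9.21-fold, Prmt8 8.70-fold, A330023F24Rik 8.10-fold and Plxna4 7.88-fold. Pkd1l1, Lgr5, 9030622O22Rik, Tll1 and the node and endoderm factor gene Foxa2 were lowest, with Lgr5 at 0.079 and Foxa2 at 0.119. The streak-scored group was mixed. Of its 656 barcodes, 151 lay in an accessibility cluster whose leading genes include Pkd1l1, Cfap44 and Cfap206, and 157 in the leading cluster of the members. The part of these barcodes in the ratios was not tested. T was lower in members than in streak-scored barcodes, at 99.2 CPM against 235.2, Mixl1 stood at 145.4 against 166.4 and Eomes at 310.8 against 325.4. T, Mixl1 and Fgf8 are among the genes that chose the streak-scored group.

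Of the migration list, 4 of 14 genes were at least 2-fold higher and 6 at least 2-fold lower in members than in streak-scored barcodes. Among single genes named after their values were seen, Snai1 was 2.18-fold higher in members than in streak-scored barcodes, Lhx1 2.32-fold, Gata6 2.38-fold, Gata4 3.17-fold, Notch1 3.44-fold, Robo1 3.58-fold, Tenm4 3.68-fold and Fgf10 3.85-fold. Cdh1 stood at 0.312 and Cer1 at 0.186 of the streak-scored level. Of the T-box and EMT list, 4 of 10 genes were at least 2-fold higher and 1 lower in this comparison.

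Against extraembryonic mesoderm-scored barcodes, Prmt8 (27.2-fold, 13.6 to 63.9), Kcnc2 (16.8-fold), Ptprt (15.3-fold), Irx5 (13.8-fold) and Srrm4 (11.1-fold) were highest in members. Bmp4, Unc5c, Nos1ap, Lama4 and Ahnak were lowest, at 0.046 to 0.061, and Bmp4 helped choose that group. Hand1 stood at 12.1 CPM in members against 93.0, and Kdr at 98.4 against 217.2. Against epiblast-scored barcodes, Col19a1 was highest, at 156.1 CPM against 0.483 on 4 UMIs (323-fold, 126 to 1188), followed by Gm45889, Plxna4, 1010001N08Rik and Pcdh7 at 97.3-fold to 103-fold, with 2 epiblast-scored UMIs for 1010001N08Rik. Pcdh7 stood at 2925 CPM in members and 30.1 in epiblast-scored barcodes. Ccdc85a, Slc35d3, Kcnh8, Lypd6b and Slc27a2 were lowest there.

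The 623 members in the leading accessibility cluster were also set against the other 779 barcodes of that cluster, where 27 of 8791 genes (0.307%) were at least 2-fold higher in these members and 46 (0.523%) lower, among genes with at least 200 UMIs over both. Of these, 6 of the 27 (Mesp2, Lefty2, Cdh20, Pcdh19, Dll1 and Tenm2) and 1 of the 46 (Tbx20) are score genes, whose side the rule set. Mesp2, Lefty2, Cdh20 and Mesp1 stood at 4.28-fold, 4.24-fold, 3.10-fold and 1.65-fold. Outside the score, and named after their values were seen, Prmt8, Foxc1 and Irx5 were higher at 3.49-fold, 2.42-fold and 2.29-fold, and T stood at 1.08-fold. Amph, Prdm1, Hand1, Bmp4 and Tbx3 were lower, at 0.126, 0.215, 0.311, 0.313 and 0.425. The 779 barcodes include 131 extraembryonic mesoderm-scored and 157 streak-scored ones, and Bmp4 helped choose the former group. The part of these barcodes in the ratios was not tested. Summed accessibility within 50 kb of Mesp1 was 311 CPM in these 623 members and 302 CPM in the other 779 barcodes, and at Cdh20 44.8 against 28.9. In ratio, each of the other markers differed less than Cdh20, with Mesp2 at 331 against 323, Lefty2 at 357 against 326 and Dll1 at 158 against 147. Tenm2 stood at 63.4 against 57.1 and Pcdh19 at 50.6 against 51.4.

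Members were not uniform. At clustering resolution 2 of the accessibility data, 321 members lay in fine cluster 5, 199 in fine cluster 3, 107 in fine cluster 24 and 31 in fine cluster 26. Cluster 24 had a median of 7014 peak counts, against 21258 and 25459 in clusters 5 and 3, and the 2 largest were compared, a choice made after their values were seen, as were the genes named from them. Of 5921 genes with at least 200 UMIs over both, 37 (0.625%) were at least 2-fold higher in members of cluster 5 and 49 (0.828%) in members of cluster 3. These members had 4 and 0 doublet calls, and median UMIs of 10858 and 12006. Besides members, fine cluster 5 held 111 streak-scored and 7 extraembryonic mesoderm-scored barcodes, and fine cluster 3 held 17 and 95.

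Among genes higher in members of cluster 5, T stood at 156.3 CPM against 33.8 (4.62-fold, 3.67 to 5.89), Fgf8 at 110.6 against 49.3 (2.24-fold) and the streak homeobox gene Evx1 at 61.1 against 29.7 (2.06-fold, 1.57 to 2.72). Alcam, a cell adhesion gene, was at 60.1 CPM against 6.92 (8.67-fold), and Fst, which encodes the activin antagonist follistatin, at 525.8 against 109.1 (4.82-fold). Mixl1, Snai1 and Eomes did not reach 2-fold, at 1.89-fold, 1.17-fold and 1.09-fold (0.996 to 1.19), nor did the epiblast factor gene Pou5f1 at 1.97-fold. Among genes higher in members of cluster 3, Myl7, an atrial myosin light chain gene, stood at 72.1 CPM against 8.15 and Kdr at 165.3 against 58.7. Tbx3, Fgf10 and Nrp1 stood at 0.440, 0.328 and 0.193 in cluster 5 relative to cluster 3. Gata6, Gata4, Flt1 and Wnt2 did not reach 2-fold, at 0.824, 0.720, 0.989 and 1.11. The subtracted gene Tbx20 stood at 9.78 CPM in members of cluster 5 and 36.2 in members of cluster 3. These values rest on 36 and 89 UMIs, under the limit of this comparison. Fendrr had 3 UMIs in each set, and Foxf1 had 4 and 7. The score markers, on whose RNA both sets were chosen, stood at 1.57-fold for Mesp1, 1.75-fold for Mesp2, 1.12-fold for Dll1, 1.38-fold for Cdh20, 0.794 for Lefty2, 0.70 for Pcdh19 and 0.66 for Tenm2. Among cadherin genes, Cdh2 stood at 0.965, Cdh11 at 1.15-fold (1.08 to 1.22) and Cdh1 at 1.78-fold (1.35 to 2.37).

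**Figure D5:**
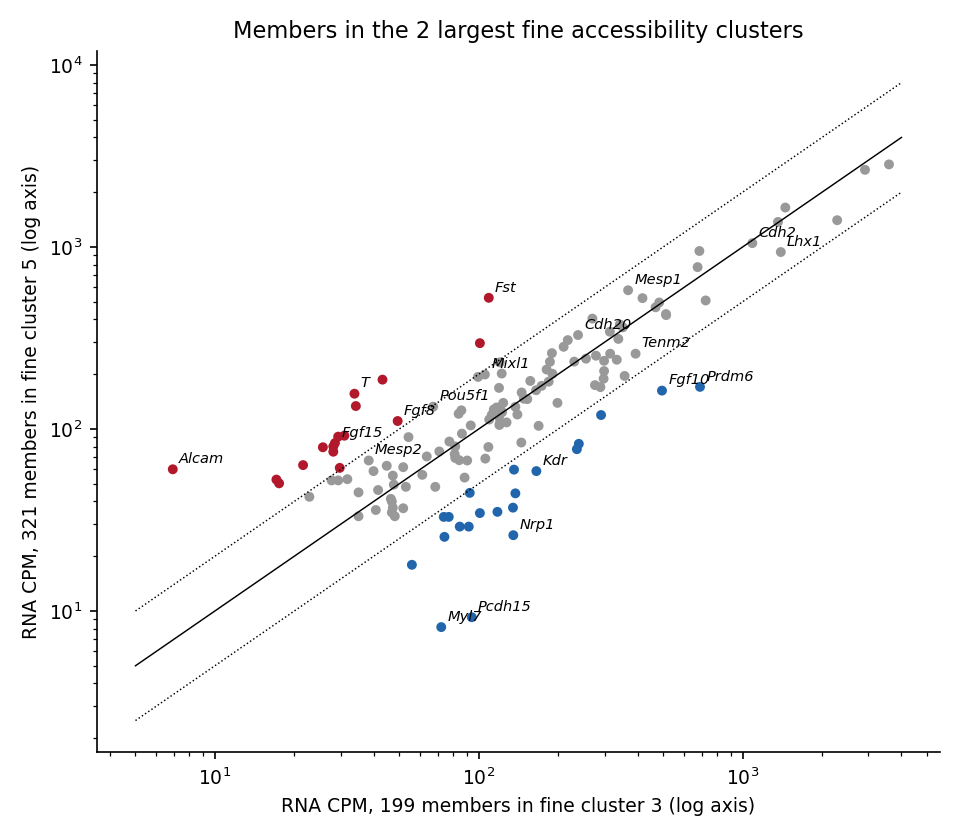
RNA CPM of named genes with at least 200 UMIs over both sets in the 199 members of fine cluster 3 (x) and the 321 members of fine cluster 5 (y), both on log axes; red and blue points are at least 2-fold higher and lower in cluster 5, and dotted lines mark 2-fold. T, Fst and Alcam lie above the upper line, Myl7, Nrp1 and Kdr below the lower one, and Mesp1, Cdh2 and Tenm2 between them.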

How the data were processed

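Nuclear RNA and chromatin accessibility were measured in the same nuclei of pooled E7.0 mouse embryos, 1 library per assay. The authors deposited counts, as UMI counts for 32285 genes and counts for 229480 peaks in 15341 barcodes, made with Cell Ranger ARC 2.0.0 on mm10, per the submitters' processing notes. The members, the gene lists and the comparison groups were chosen with earlier results of these data known. Each comparison group is the 700 barcodes with the highest mean ln(1 + UMIs per 10000) over its own genes, members excepted, with barcodes in more than 1 such group removed. Counts were summed per group and given as CPM, counts per 1000000 of the group's total. Ratios are CPM ratios with no pseudocount, and intervals are exact and cover counting error only; PCR copies are collapsed for RNA by UMIs. Since 86.4% of nonzero peak values were even, peak intervals used counts divided by 2. Genes needed 100 UMIs over both groups (200 for comparisons within the leading cluster and between fine clusters, with at most 20% from 1 nucleus), and peaks and promoters 200 counts. Promoter peaks lie within 1000 bases before to 100 after a listed start. Barcodes were clustered on TF-IDF peak counts (225001 peaks, 30 singular vectors without the first, 15 neighbours, Leiden resolution 1) with scanpy 1.11.5 and leidenalg 0.10.2. Doublets were called with Scrublet and kept. The text names the score genes, the genes with the 15 highest and 10 lowest RNA ratios (at least 200 UMIs in members, or 2000 in the others), the 5 highest and lowest against each scored group, list genes, and the highest peaks (distal ones with at least 200 member counts). Listed starts matched a RefSeq start within 100 bases for 88.2% of 20287 genes, so RefSeq GRCm38.p6 promoter windows were used. Peak sequences were not used here. The scripts were tested on simulated data.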

Additional observations from a re-analysis of the deposited data

How the results depend on the processing

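Alternatives to the score, the limit and the clustering left the counts of genes, promoters and distal peaks within 1.5 times the values given, except that with no filter on low counts 2566 genes were at least 2-fold higher in RNA and 8468 at least 2-fold lower. The share of members in their leading accessibility cluster was 92.2% with the top 500 barcodes, 84.4% with the top 1000, 83.0% with doublet calls left out, 91.7% without the subtracted genes, 86.1% without the adhesion genes in the score, 45.9% at resolution 2 and 42.1% with 20 singular vectors. Of 210 values of 35 named genes under 6 alternatives, 125 stayed within the interval, 83 moved in the same direction and 2 reversed: with no subtracted genes in the score, Foxf1 stood at 0.48 and Tbx20 at 0.84 on the log2 scale, since these genes then no longer lowered the score. With 1 library per assay, no interval covers differences between embryos. Members share the RNA that chose them, so RNA ratios are not independent of the rule. Depth limits detection: with each nucleus thinned to 3000 UMIs, the 7 markers were found in 13.8% to 68.2% of members. The 2 assays were paired by barcode, and accessibility was read in the nuclei that RNA chose. With 1 library per assay there was no replicate, and no test was made.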
